A study of Homo sapiens with 47 samples.

Results

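The little elongation complex (LEC) and the ELL and EAF families were described from 7 genes, namely ELL, ELL2, ELL3, EAF1, EAF2, ICE1 and ICE2, taken by symbol from the RNA-seq count table of 58395 genes. All 7 were among the 28025 genes with enough counts to be tested. Ribosomal RNA-depleted total RNA was sequenced from HEK293T, a cell line of human embryonic kidney, in 3 wild-type libraries and 3 libraries of EAF1-mutant cells, and the question was how the mutation of EAF1 bears on gene expression. Per the study's methods, the mutant is a line (E/2-24) grown from a clone of HEK293T cells after CRISPR knock-in, in which both alleles of EAF1 carry alanines in place of 4 residues near the C terminus. The labels give the genotype and a replicate number. The methods speak of biological replicates for the experiments in general, without saying whether the cultures behind these libraries were separate. The methods describe only this EAF1-mutant line, but the labels do not name it and the supplement speaks of mutant lines in the plural. The p-values thus measure the spread between these libraries, and differences between lines cannot be told from it. Depth was 59137210, 52541541 and 55637032 counts for wild type and 57198018, 53369621 and 66611451 for the mutant.

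ELL proteins bind RNA polymerase II and raise its rate of elongation by shortening its pauses on DNA, and EAF proteins are partners that bind ELL and stimulate it. LEC joins an ELL and an EAF protein to the scaffold ICE1 and to ICE2, and is known for its place at genes whose transcripts carry no poly(A) tail, such as those of small nuclear RNAs and replication-dependent histones. The same ELL and EAF proteins also take part in the super elongation complex (SEC), where AFF scaffolds hold them together with the kinase P-TEFb. The Mediator subunit MED26 docks both complexes, and the C terminus of EAF1 is a contact for it.

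The place of the mutation is shown by the guide used to cut EAF1 and by the reference sequence around it, since both lie in the gene whose RNA changed most among the 7. The guide's 20 bases matched a single place on chromosome 3, at chr3:15439114-15439133 on the + strand of GRCh38, within exon 6 of the 6 exons of EAF1, and the 3 bases in capitals are the PAM that follows it. The reference stretch runs from the first base of exon 6 to the stop codon (chr3:15439109-15439155, + strand), and its capitals mark the 4 codons, for residues 262 to 265 of 268, that were replaced.
EAF1 guide with PAM: gacttgcagttgagtgagtcTGG
EAF1 end of the coding sequence: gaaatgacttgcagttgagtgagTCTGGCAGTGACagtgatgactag
A change of 12 bases leaves the transcript countable, so the RNA level of EAF1 does not check the genotype of a library.

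In wild-type cells the RNA of the 7 genes spanned a wide range once divided by the length of the merged exons. Between genes, levels are given as counts scaled to library size by edgeR's TMM factors (CPM) and divided by length (CPM per kb). ICE1, the scaffold of LEC, stood highest at 13.8 ± 0.538 CPM per kb (SD, n = 3), with 13.5, 14.5 and 13.6 in its 3 libraries. EAF1 followed at 11.7 ± 0.194, with 11.7, 11.9 and 11.5, below each of the values of ICE1. ELL2 was at 5.92 ± 0.149 CPM per kb and ICE2 at 4.54 ± 0.197, each apart from its neighbors in this order. ELL, the founding member of its family, was at 2.52 ± 0.0775, with 2.61, 2.48 and 2.48 CPM per kb. EAF2 was at 2.33 ± 0.284, with 2.54, 2.45 and 2.00, so that EAF2 and ELL overlapped and did not differ beyond their spread. ELL3 was lowest at 1.88 ± 0.0705 CPM per kb, and its highest library, at 1.93, lay below the lowest of EAF2. The order rests in part on the gene models, because the 17 annotated transcripts of ICE2 merge to 16010 bases of exon while its longest transcript has 7206. Divided by the longest transcript of each gene instead, ICE2 came to 10.1 CPM per kb, above ELL2 at 7.22, and EAF2 came to 4.13, above ELL at 3.04.

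**Figure D1:**
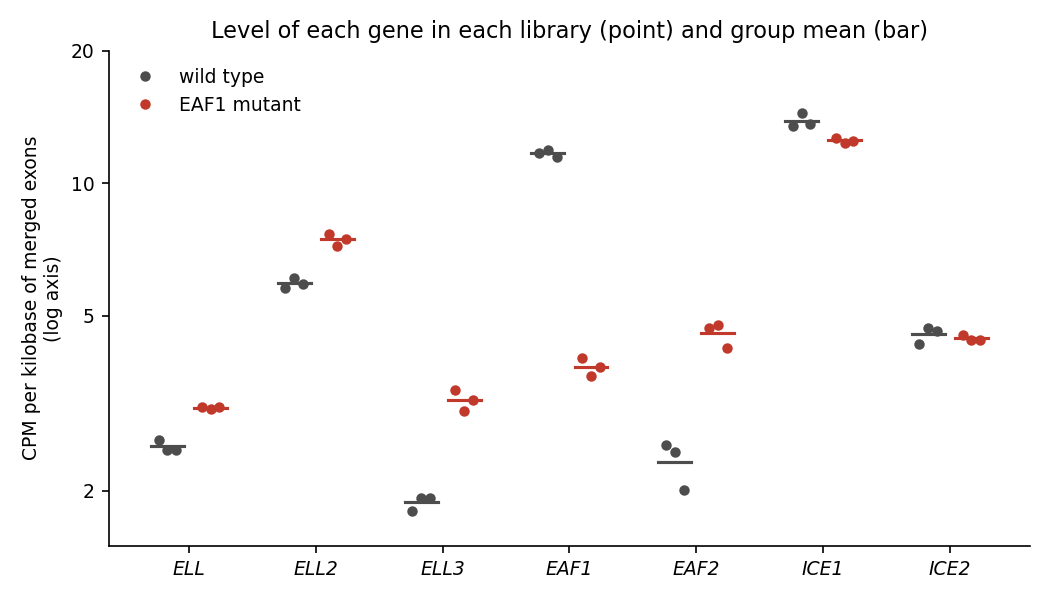
Level of each of the 7 genes in CPM per kb of merged exons (log axis), with a point for each library, a bar for the mean of 3 libraries, wild type in grey and EAF1 mutant in red. EAF1 stood at 11.7 in wild type and 3.82 in the mutant, while EAF2 stood at 2.33 and 4.56, so that the order of this pair turned over between the groups.

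In EAF1-mutant cells the genes of the EAF family moved in opposite directions, ELL3 rose, and the others stayed under the fold threshold. A gene was called where edgeR's quasi-likelihood test, with Benjamini-Hochberg adjustment over all tested genes, gave an adjusted p under 0.01 and the log2 fold change passed 0.5 in size. Of the 7 genes 3 were called, where 20.3% of all tested genes were; 1 was lower, where 9.36% of all tested genes were, and 2 were higher, where 11.0% were. Among all tested genes 2624 were lower and 3073 higher, and the split was 1844 and 4166 when libraries were scaled by their totals and not by TMM. Scaling by totals moved the median over all tested genes from 0.01 to 0.13 on the log2 scale, and the changes below are relative to the first of these. At any fold change, 6 of the 7 genes were past an adjusted p of 0.01, against 41.5% of all tested genes. The 3 libraries of each group did not overlap in CPM for 6 of the 7, against 57.3% of all tested genes. In bulk RNA of this kind, fewer cells with a transcript and less of it in each cell cannot be told apart.

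EAF1 (ENSG00000144597, chr3:15427598-15450635, + strand, GRCh38), the EAF gene that carries the mutation, had 57.4, 58.3 and 56.4 CPM in the wild-type libraries and 19.6, 17.9 and 18.7 CPM in the EAF1-mutant libraries. Every mutant library lay far below every wild-type library, and the spread within each group was small beside the gap. The level was 57.4 ± 0.950 CPM (SD, n = 3) in wild type and 18.8 ± 0.883 CPM in the mutant, or 0.327 times as much. The log2 fold change was -1.61 with a standard error of 0.05 and a 95% confidence interval from -1.71 to -1.52 (edgeR, adjusted p = 2.46e-18). Leaving out any library gave between -1.65 and -1.58. These are RNA levels only. By western blot the paper reports that EAF1, ICE1 and ELL proteins were little changed in the mutant, so the RNA does not stand for protein.

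EAF2 (ENSG00000145088, chr3:121835183-121886526, + strand), its paralog on the other arm of the same chromosome, had 4.49, 4.33 and 3.55 CPM in the wild-type libraries and 8.31, 8.45 and 7.48 CPM in the EAF1-mutant libraries. All mutant libraries were above all wild-type libraries, and in each group the third library was the lowest. The means were 4.12 ± 0.504 and 8.08 ± 0.522 CPM (SD, n = 3), a log2 fold change of 0.97 with a standard error of 0.09 (95% confidence interval 0.78 to 1.16; edgeR, adjusted p = 5.01e-09). IQCB1, whose start lies within 1 kb of that of EAF2 on the other strand, went from 68.0 ± 2.26 to 83.7 ± 3.02 CPM, a log2 fold change of 0.30 that is short of the fold threshold (edgeR, adjusted p = 1.28e-06).

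Because EAF1 fell and EAF2 rose, the make-up of the EAF family was compared within each library, where library scaling cancels. Both genes had already moved apart without overlap, so the permutation p-values of their share and ratio restate that separation. EAF1 held 82.2%, 82.9% and 85.2% of the counts per kilobase of the pair in wild type, and 46.0%, 43.3% and 47.5% in the mutant. In wild type EAF1 was thus the main EAF transcript in each library, and in the mutant it held the smaller part in each. The mean share went from 83.4% ± 1.55 to 45.6% ± 2.12 (SD, n = 3), a difference of -37.8 percentage points (exact two-sided permutation test, p = 0.1, the smallest that 3 against 3 libraries can give). Of counts not divided by length EAF1 held the larger part in both groups, and the difference was -23.4 points. The log2 ratio of EAF2 to EAF1 counts was -3.68, -3.75 and -3.99 in wild type and -1.24, -1.08 and -1.32 in the mutant, a ratio 6.02 times as high (exact permutation test, p = 0.1). The sum of both genes went from 14.0 ± 0.452 to 8.38 ± 0.327 CPM per kb, a change of -40.2%, so the rise of EAF2 was smaller in CPM per kb than the fall of EAF1. The shares of EAF1 and ELL, the 5 paralog ratios and the value of EAF1 against its neighbors form a family of 8 permutation tests, in which a p of 0.1 becomes 0.114 after Benjamini-Hochberg adjustment.

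**Figure D2:**
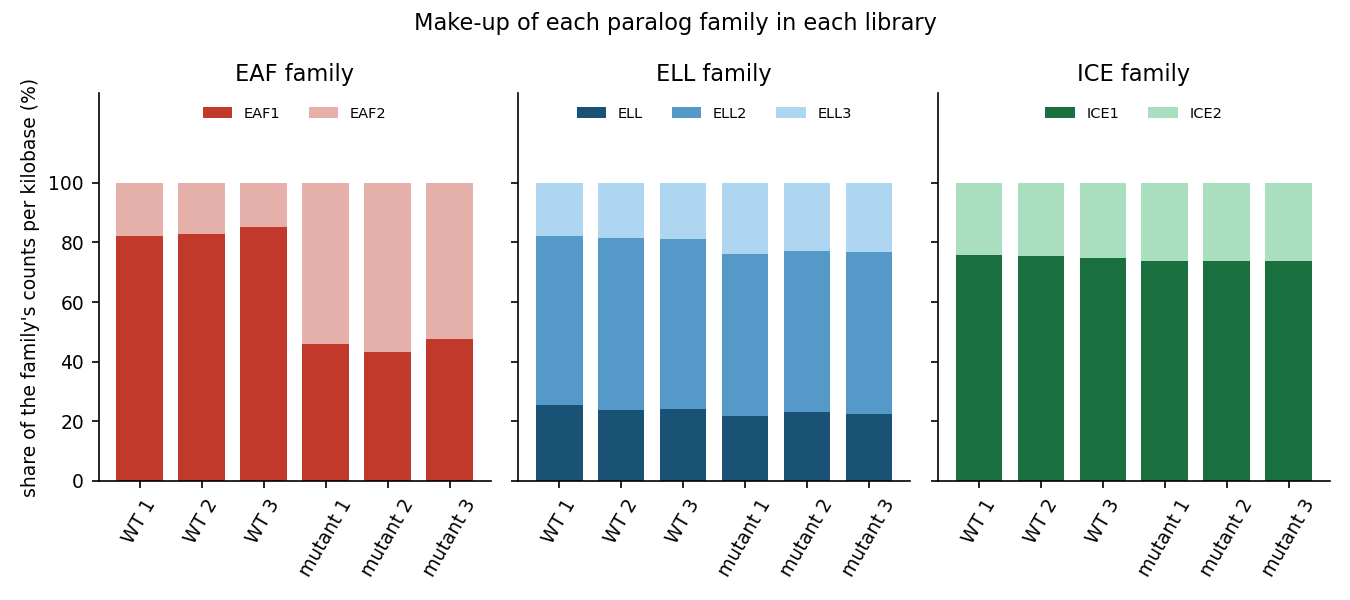
Share of each paralog in the counts per kilobase of its family (%), stacked to 100 for each of the 3 wild-type (WT) and 3 EAF1-mutant libraries, for the EAF, ELL and ICE families. EAF1 held 82.2% to 85.2% of the EAF family in wild type and 43.3% to 47.5% in the mutant, while the make-up of the ELL and ICE families moved by a few points.

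ELL3 (ENSG00000128886, chr15:43772605-43777315, - strand), the ELL paralog with the least RNA in wild type, had 4.51, 4.80 and 4.82 CPM in the wild-type libraries and 8.47, 7.60 and 8.03 CPM in the EAF1-mutant libraries. The groups did not overlap. The means were 4.71 ± 0.176 and 8.03 ± 0.436 CPM (SD, n = 3), and the log2 fold change was 0.77 with a standard error of 0.08 (95% confidence interval 0.61 to 0.94; edgeR, adjusted p = 2.06e-08). These counts are uncertain as to their gene. ENSG00000262560, annotated on the same strand, shares 4699 bases of the span of ELL3 and rose from 6.94 ± 0.167 to 10.9 ± 0.375 CPM, a log2 fold change of 0.65 (edgeR, adjusted p = 1.70e-08). On the other strand PDIA3 and SERF2 overlap the ends of ELL3, and their log2 fold changes were -0.22 and 0.02. Both had far more RNA than ELL3, at 216.7 ± 4.70 and 144.2 ± 4.91 CPM in wild type.

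ELL (ENSG00000105656, chr19:18442663-18522116, - strand) had 12.8, 12.2 and 12.2 CPM in wild type and 15.3, 15.1 and 15.3 CPM in the mutant. The mutant libraries were all higher, and the log2 fold change of 0.29 with a standard error of 0.06 stayed under the fold threshold (edgeR, adjusted p = 1.05e-04). ELL2 (ENSG00000118985, chr5:95885098-95961851, - strand), the paralog with the most RNA in this family, had 41.1, 43.2 and 41.8 CPM in wild type and 54.5, 51.3 and 53.1 CPM in the mutant. Again the groups did not overlap, and the log2 fold change was 0.33 with a standard error of 0.04, also under the fold threshold (edgeR, adjusted p = 3.79e-07). With library totals alone ELL and ELL2 were at 0.41 and 0.45, so the direction of both was the same under each scaling tried.

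The 3 ELL genes together went from 10.3 ± 0.141 to 13.8 ± 0.418 CPM per kb (SD, n = 3), a change of 33.3%, and the groups did not overlap. ELL held 25.6%, 23.6% and 24.1% of the family in wild type and 21.9%, 23.0% and 22.5% in the mutant. Its mutant values were all lower, with means of 24.4% ± 1.03 and 22.5% ± 0.569 (exact two-sided permutation test, p = 0.1). Without the first wild-type library the difference was -1.38 points in place of -1.97, and without division by length it was -1.02 points (exact permutation test, p = 0.2 for the latter). ELL2 held 57.3% ± 0.657 in wild type and 54.2% ± 0.0159 in the mutant, and remained the main ELL transcript in each library. ELL3 went from 18.2% ± 0.532 to 23.4% ± 0.558, and drew level with ELL per length of merged exons. Its counts not divided by length stayed below those of ELL, with a log2 ratio of -0.92 ± 0.0710 in the mutant. The counts of ELL3 are uncertain as to their gene, and so are its share and the sum of the family. The log2 ratio of ELL3 to ELL counts differed by 0.48 between the groups and that of ELL3 to ELL2 by 0.44 (exact permutation test, p = 0.1 for each). The log2 ratio of ELL2 to ELL was 1.76 ± 0.0757 in wild type and 1.80 ± 0.0368 in the mutant, and the groups overlapped (exact permutation test, p = 0.6).

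ICE1 (ENSG00000164151, chr5:5420664-5490220, + strand), the scaffold that sets LEC apart from SEC, had 116.9, 125.5 and 118.0 CPM in the wild-type libraries and 110.2, 107.4 and 108.1 CPM in the EAF1-mutant libraries. The mutant libraries were all lower, but the log2 fold change was only -0.15 with a standard error of 0.04 (95% confidence interval -0.22 to -0.07; edgeR, adjusted p = 0.00257). With library totals alone it was -0.03 (edgeR, adjusted p = 0.531), so this difference depends on the scaling, and over all alternatives its adjusted p ran from 5.94e-04 to 0.531. ICE2 (ENSG00000128915, chr15:60419609-60479160, - strand), the other subunit found in LEC and not in SEC, had 69.2, 75.2 and 73.7 CPM in wild type and 72.2, 70.6 and 70.3 CPM in the mutant. The groups overlapped, with a log2 fold change of -0.03 (95% confidence interval -0.12 to 0.05; edgeR, adjusted p = 0.523), and 0.08 with library totals alone. The log2 ratio of ICE1 to ICE2 counts, which does not depend on scaling, was 0.76, 0.74 and 0.68 in wild type and 0.61, 0.60 and 0.62 in the mutant. The mutant ratios were all lower, a difference of -0.11 (exact permutation test, p = 0.1).

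In EAF1-mutant cells the levels per length of merged exons thus took another order. ICE1 was at 12.5 ± 0.170 and ELL2 at 7.45 ± 0.228 CPM per kb (SD, n = 3). EAF2 at 4.56 ± 0.295 and ICE2 at 4.44 ± 0.0624 overlapped. EAF1 came next at 3.82 ± 0.180 CPM per kb, below each library of EAF2 and of ICE2. ELL3 at 3.21 ± 0.174 and ELL at 3.09 ± 0.0182 overlapped. This order too rests on the gene models. Divided by the longest transcript, an alternative chosen after seeing the data, ICE2 came to 9.86 CPM per kb, above ELL2 at 9.09, and EAF2 to 8.09. ELL3 came to 4.54 and EAF1 to 4.22, in overlap, and ELL to 3.73.

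EAF1 lies on the short arm of chromosome 3, and its fall was set beside the genes around it. The neighbors were the other protein-coding tested genes within 5 Mb on each side, and there were 50. Their median log2 fold change was -1.53, with quartiles of -1.74 and -0.37, beside 0.01 over all tested genes. Of the 50, 34 were lower past the threshold and 1 was higher, and the 68% that were lower compare with 9.36% of all tested genes. EAF1 at -1.61 lay inside this range, with 20 neighbors lower and 30 higher than it. Relative to the median of its neighbors, on the log2 scale and centred on wild type, EAF1 was at 0.01, 0.02 and -0.03 in the wild-type libraries and at -0.04, -0.28 and -0.05 in the mutant libraries. The difference of EAF1 from this local median was -0.13 between the groups (exact two-sided permutation test, p = 0.1, the smallest possible). This median pools both sides of EAF1, which differed (below), so its value depends on how many genes each side holds. Centring on wild type treats the groups unlike, so the p-values of this comparison are descriptive only. Without the second mutant library the difference was -0.05. It was -0.04 with neighbors within 2 Mb (exact permutation test, p = 0.7) and -0.33 with noncoding genes among the neighbors (exact permutation test, p = 0.1).

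The neighbors differed by side, a division made after their values were seen. Of the 34 that start on the telomere side of the start of EAF1, 31 were lower past the threshold, with a median log2 fold change of -1.65. Of the 16 on the centromere side, 3 were lower and 1 was higher, with a median of -0.16. The first of these 16 is METTL6, a tRNA methyltransferase on the other strand, whose annotated start lies within the span of EAF1 and which shares 12969 bases with that span. METTL6 went from 38.7 ± 1.40 to 11.7 ± 0.691 CPM (SD, n = 3), a log2 fold change of -1.73 (edgeR, adjusted p = 8.64e-18). The next 7 genes, from COLQ to RFTN1, had log2 fold changes between -0.44 and 0.13, and 0 of them were past the threshold with edgeR or DESeq2, while 5 had an unadjusted p under 0.05 in edgeR (20.3% and 56.2% of all tested genes in edgeR). COLQ, the collagen tail of acetylcholinesterase, shares the last 503 bases of EAF1 on the other strand and was at 3.12 ± 0.290 and 3.04 ± 0.0962 CPM (log2 fold change -0.04; edgeR, adjusted p = 0.770). The noncoding EAF1-AS1 shares 14465 bases with EAF1 and went from 25.3 ± 0.803 to 8.70 ± 0.172 CPM, a log2 fold change of -1.54 (edgeR, adjusted p = 1.36e-16). In the deposited table, genes on opposite strands with the same start and end, each a single stretch of exon, had identical counts in every library in 11 of the 11 pairs with any counts. The counting thus took no account of strand and gave a read to both genes of such a pair, and reads of EAF1, METTL6 and EAF1-AS1 cannot be told apart where their exons overlap.

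**Figure D3:**
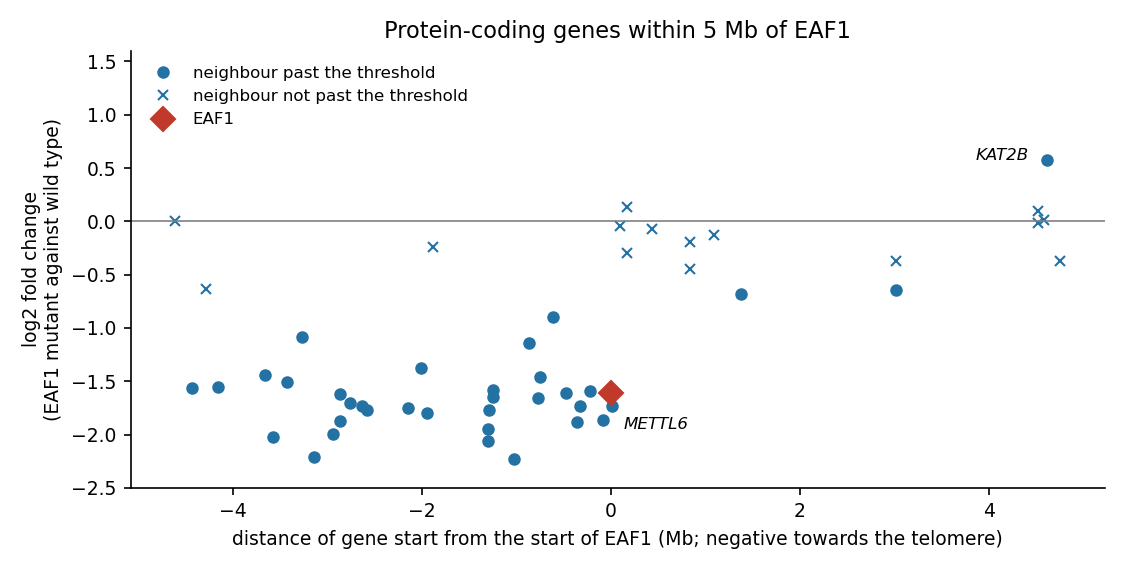
Log2 fold change (EAF1 mutant against wild type, 3 libraries each) of EAF1 (red diamond) and of the 50 protein-coding tested genes within 5 Mb, against the distance of their start from that of EAF1 (Mb). Filled circles are past the threshold and crosses are not; 31 of 34 neighbors on the telomere side were lower, and EAF1 and METTL6 stand at the end of that run.

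The other 6 genes were set beside their neighbors in the same way. The median log2 fold change of the protein-coding genes within 5 Mb was 0.18 around ELL (161 genes), 0.03 around ELL2 (25 genes) and 0.07 around ELL3 (107 genes). It was 0.26 around EAF2 (58 genes), 0.00356 around ICE1 (29 genes) and -0.03 around ICE2 (65 genes). Of the 58 neighbors of EAF2, 14 were higher past the threshold and 1 was lower, where 11.0% and 9.36% of all tested genes were, and 11 had a log2 fold change below 0. EAF2 was higher than 51 of them, and relative to their median it differed by 0.72 between the groups. ELL3 was higher than 96 of its 107 neighbors, with a difference of 0.67 relative to their median. ELL2 was higher than 19 of 25, with a difference of 0.30. ICE1 was lower than 22 of its 29 neighbors, with a difference of -0.15 relative to their median. ICE2 was lower than 33 of 65, with a difference of -0.03. ELL was higher than 110 of 161, of which 22 were higher past the threshold and 3 lower, and relative to their median its difference was 0.11, beside its own log2 fold change of 0.29.

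**Figure D4:**
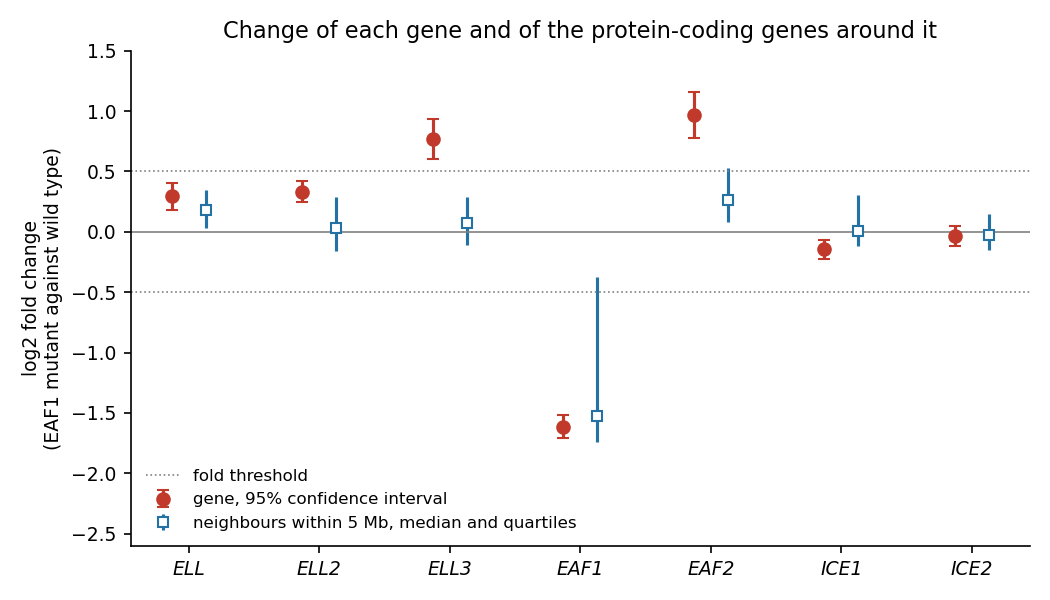
Log2 fold change of each of the 7 genes between EAF1-mutant and wild-type cells, 3 libraries each (red circle, 95% confidence interval), beside the median and quartiles of the protein-coding tested genes within 5 Mb on each side (blue square). Dotted lines mark the fold threshold of 0.5. EAF1 at -1.61 sits beside a local median of -1.53, whereas EAF2 at 0.97 and ELL3 at 0.77 lie above theirs, at 0.26 and 0.07.

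The genes most like each called gene in their log2 CPM over the 6 libraries, centred on wild type, were taken by Euclidean distance among those averaging 1 CPM or more. For EAF1 the nearest was MKRN2, a ring finger gene that is among its neighbors on chromosome 3, at a distance of 0.0483 and with a log2 fold change of -1.62. STXBP6, on chromosome 14, followed at 0.0759, and then RPSAP54, a processed pseudogene on chromosome 13 whose reads may come from copies of similar sequence, at 0.103. For EAF2 they were MPZL2 at 0.135, PCDHGA11 at 0.143 and ZNF829 at 0.146. For ELL3 they were HERC5 at 0.0742, ZDHHC12-DT at 0.0763 and TC2N at 0.0781. The profile of ELL3 was a common one, with 226 genes within a distance of 0.25, against 35 for EAF2 and 34 for EAF1.

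The promoters of the 3 called genes are shown to compare the sequence before the RefSeq start of the gene that fell with that of the genes that rose. The promoter table used, from RefSeq on GRCh38.p14, held 6 of the 7 genes, all but ELL2. The 150 bases before the start site are printed for EAF1 (chr3:15427448-15427597, + strand), EAF2 (chr3:121835059-121835208, + strand) and ELL3 (chr15:43776967-43777116, - strand). These RefSeq starts are not those of the gene models used here for positions and lengths. The stretch printed for ELL3 lies wholly within the span of ELL3 given above, and the last bases printed for EAF2 lie within that of EAF2. They are thus not upstream of the whole annotated gene. Capitals mark matches on either strand. The motifs searched were the CCAAT box, spelled as in its name, the GC box, spelled GGGCGG, and the core that ETS factors bind, spelled CCGGAAGT, and no match overlapped another.
EAF1: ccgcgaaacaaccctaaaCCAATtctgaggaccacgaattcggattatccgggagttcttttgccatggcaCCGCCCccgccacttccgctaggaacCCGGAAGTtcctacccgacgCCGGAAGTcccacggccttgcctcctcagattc
EAF2: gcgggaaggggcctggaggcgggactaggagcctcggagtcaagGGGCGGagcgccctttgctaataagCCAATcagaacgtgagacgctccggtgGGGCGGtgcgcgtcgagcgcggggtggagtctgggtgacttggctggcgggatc
ELL3: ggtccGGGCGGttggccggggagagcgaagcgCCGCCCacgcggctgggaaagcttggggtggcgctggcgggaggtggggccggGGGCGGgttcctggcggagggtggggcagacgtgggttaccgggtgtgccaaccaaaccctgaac
EAF1 had 2 ETS cores, 1 CCAAT box and 1 GC box, EAF2 had 2 GC boxes and 1 CCAAT box, and ELL3 had 3 GC boxes. In the 250 bases before the RefSeq start, ICE1 had 5 GC boxes and 1 CCAAT box, ICE2 had 1 of each and ELL had 2 GC boxes. The window of ICE1 lay wholly within its span given above, and those of ICE2 and ELL in part. A TATA box, searched as TATAAA, was in none of the 6 windows. Of 35116 promoters, 42.6% held a GC box in this window, 32% a CCAAT box, 10.7% a TATA box and 3.42% the ETS core. These matches describe the letters only.

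Partners of the 7 genes were followed in lists of 48 genes, all of which were tested. Past the threshold 3 of the 48 were higher and 0 lower, where 11.0% and 9.36% of all tested genes were. With DESeq2 2 were higher and 0 lower. In edgeR 32 of the 48 had an unadjusted p under 0.05 and 11 of these were lower, where 56.2% of all tested genes had such a p and 27.8% had it and were lower. Their median log2 fold change was 0.07, beside 0.01 for all tested genes. At any fold change, 23 of the 48 were past an adjusted p of 0.01 in edgeR, 15 of them higher and 8 lower, against 41.5% of all tested genes.

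Of the genes closest to LEC, MED26 had 10.4, 10.6 and 11.3 CPM in wild type and 10.7, 11.4 and 11.6 CPM in the mutant, and the groups overlapped (log2 fold change 0.06; edgeR, adjusted p = 0.425). ZC3H8, a zinc finger protein that joins LEC, had 23.8 ± 0.852 and 22.9 ± 0.676 CPM (SD, n = 3; log2 fold change -0.06; edgeR, adjusted p = 0.328). Of the 6 genes of the cap-binding complex and the pausing factor NELF, 0 were past the threshold with edgeR or DESeq2 and 4 had an unadjusted p under 0.05 in edgeR (20.3% and 56.2% of all tested genes in edgeR), and the median log2 fold change was 0.08. NCBP1, the large cap-binding subunit and the gene of this list with the most RNA per length in wild type, had 152.7 ± 7.02 and 141.5 ± 1.56 CPM (log2 fold change -0.11; edgeR, adjusted p = 0.0199).

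Of the 9 genes of SEC and P-TEFb, 0 were past the threshold with either tool and 6 had an unadjusted p under 0.05 in edgeR (20.3% and 56.2% of all tested genes in edgeR), with a median log2 fold change of 0.14. CCNT1, the cyclin of P-TEFb and the highest per length in wild type, had 120.9 ± 3.28 and 130.2 ± 2.98 CPM (log2 fold change 0.11; edgeR, adjusted p = 0.0203). The scaffolds AFF1, AFF2, AFF3 and AFF4, named here after their values were seen, had log2 fold changes of 0.33, 0.35, 0.44 and 0.33, each under the fold threshold. AFF4 had 108.8, 117.3 and 112.7 CPM in wild type and 143.5, 143.0 and 138.7 CPM in the mutant, without overlap (edgeR, adjusted p = 1.26e-07).

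Among 5 genes of the 7SK particle, which holds P-TEFb inactive, RN7SK was higher past the threshold, where 11.0% of all tested genes were, and 4 genes were not. RN7SK, the RNA of the particle, had 14290, 13638 and 13661 CPM in wild type and 19939, 20541 and 20324 CPM in the mutant, with no overlap. Its log2 fold change was 0.55 with a standard error of 0.03 (edgeR, adjusted p = 1.10e-12), and its reads are uncertain because near-identical copies exist in the genome. Of 15 other elongation factors 0 were past the threshold with edgeR or DESeq2 and 11 had an unadjusted p under 0.05 in edgeR (20.3% and 56.2% of all tested genes in edgeR), with log2 fold changes from -0.28 to 0.44 and a median of 0.06. TCEA1, which restarts backtracked polymerase and had the highest wild-type mean of these per length, in overlap with GTF2F1, had 124.7 ± 3.22 and 102.3 ± 7.28 CPM (log2 fold change -0.28; edgeR, adjusted p = 8.93e-06).

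The C-terminal domain of ELL proteins is shared with occludin, and 2 of the 3 genes of that kind were higher past the threshold with edgeR and 1 with DESeq2, where 11.0% of all tested genes were with edgeR. MARVELD2, a tight-junction protein, had 3.76, 4.21 and 3.70 CPM in wild type and 11.4, 11.5 and 10.9 CPM in the mutant. All mutant libraries lay well above the wild-type ones (log2 fold change 1.53, standard error 0.08; edgeR, adjusted p = 7.41e-14). MARVELD2 (chr5:69415065-69444330) and OCLN (chr5:69492292-69558104) lie close together on the + strand, so both calls come from 1 stretch of chromosome 5. OCLN, occludin itself, had 44.9, 46.0 and 44.0 CPM in wild type and 64.4, 62.7 and 64.6 CPM in the mutant. Its log2 fold change of 0.51 lay at the threshold, and fell to 0.47 without the third wild-type library, 0.493 without the first and 0.499 without the third mutant library, each under it. Of 8 genes of histone locus bodies and Cajal bodies, the sites where histone and small nuclear RNA genes are transcribed, 0 were past the threshold with edgeR or DESeq2 and 5 had an unadjusted p under 0.05 in edgeR (20.3% and 56.2% of all tested genes in edgeR), and the median log2 fold change was -0.11. Of these 5 genes 4 were lower, where 27.8% of all tested genes had such a p and were lower. SLBP, which binds the stem-loop of histone mRNA and was the highest per length in wild type, had 84.6 ± 0.591 and 86.3 ± 2.74 CPM (log2 fold change 0.03, edgeR, adjusted p = 0.553). CASP8AP2, named after its values were seen, had the lowest log2 fold change of the 48 partners, -0.42, under the fold threshold. It went from 99.6 ± 5.03 to 74.5 ± 2.35 CPM without overlap (edgeR, adjusted p = 1.11e-08).

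**Figure D5:**
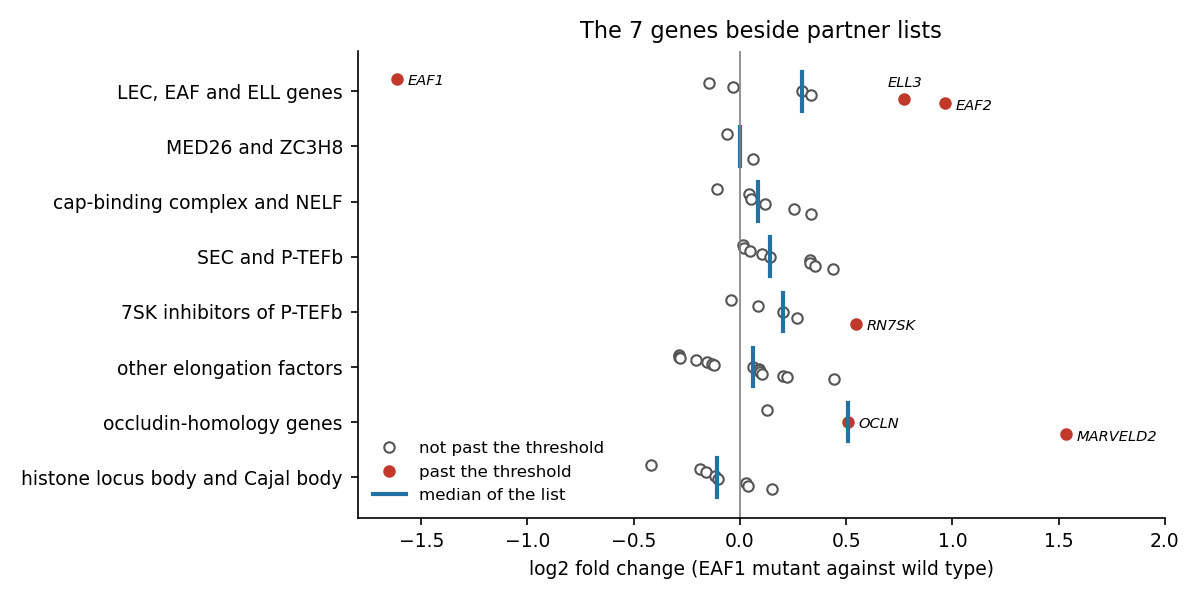
Log2 fold change (EAF1 mutant against wild type, 3 libraries each) of the 7 genes and of the 48 genes of the 7 partner lists, with a point for each gene, filled red where past the threshold, and a blue bar at the median of each list. EAF1 at -1.61 stands alone on the left, and MARVELD2 at 1.53, EAF2 at 0.97 and ELL3 at 0.77 lead on the right.

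Markers were checked for the identity of the cultures. All 6 markers of HEK293T cells had counts in the 6 libraries, and their summed level was 541.5, 549.4 and 570.4 CPM in wild type and 390.3, 390.0 and 399.2 CPM in the mutant. PAX2 was low, at 0.678 ± 0.177 CPM in wild type and 0.871 ± 0.194 CPM in the mutant, from 29 to 60 counts a library. That is little above the summed markers of other cells below, so its counts say little about identity. VIM was the most abundant and fell from 380.2 ± 8.97 to 199.3 ± 4.00 CPM, and NEFM fell from 62.3 ± 5.38 to 25.1 ± 0.479 CPM. KRT8 rose from 22.8 ± 1.44 to 59.4 ± 0.944 CPM and KRT18 from 34.3 ± 0.753 to 60.5 ± 0.824 CPM (SD, n = 3). These 4, of them 2 higher and 2 lower, were past the threshold in edgeR, where 11.0% of all tested genes were higher and 9.36% lower, and PAX2 and NEFL were not. The part of these differences between the lines in the changes of the 7 genes was not tested. The 6 markers of other cells (PTPRC, CD3E, ALB, HBG1, COL1A2 and DES) summed to 0.283, 0.376 and 0.355 CPM in wild type and 0.671, 0.449 and 0.709 CPM in the mutant, where all sums were higher and all were below 1 CPM. DES was the highest of them with 11 to 31 counts in a library, and CD3E had 1 count in a single library.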

How the data were processed

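The authors trimmed the reads (Trim Galore in the methods, Trimmomatic in the submitters' processing notes), aligned them with HISAT2 to GRCh38 and used Rsubread to make the deposited table of raw counts per Ensembl gene. Its settings are not stated; identical counts of same-span genes on opposite strands show that strand was not used and that overlapping genes shared reads, while the handling of multi-mapping reads stays unknown. Of 58395 identifiers, 57754 matched GENCODE v44, which gave symbols, positions and exon lengths. The counts were filtered with filterByExpr, scaled by TMM to CPM (prior count of 2 for log2 CPM) and tested by quasi-likelihood in edgeR 4.0.16 under R 4.3.3, a step checked on simulated counts. Standard errors were taken as the log2 fold change over the root of F. Shares, ratios and neighbor values were tested by exact two-sided permutation of libraries. Alternatives were DESeq2 1.42.0, other scalings, filters, thresholds, lengths and windows, a replicate block and each library left out. At 52541541 to 66611451 counts, 3 counts are under 0.06 CPM. Named were the 7 genes, and of the partner lists each called gene and the one with the most CPM per kb in wild type, with MED26, the AFF scaffolds and GTF2F1 (in overlap with TCEA1) besides, plus genes on or near the 7, markers, partners called only with another setting, and the 3 nearest profiles of each called gene. CASP8AP2 was added after its values were seen. The 7 genes and all lists were chosen with earlier results of these data known. Other assays were not analysed here.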

Additional observations from a re-analysis of the deposited data

How the results depend on the processing

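The 3 calls among the 7 genes were made with DESeq2, both other scalings, both other filters, the replicate block and each library left out, so leaving out a library gave 3 calls throughout. At any fold change 6 of the 7 were called, and with a log2 fold change over 1 only EAF1, or 1. Of the partner genes 5 were called with library totals alone (AFF3 and SUPT5H were added), 23 at any fold change and 1 with a log2 fold change over 1, and leaving out a library gave 2 to 3; OCLN was the gene lost, also with DESeq2 (log2 fold change 0.496). Over all genes 5697 were called, 11639 at any fold change and 2150 with a log2 fold change over 1; leaving out a library gave 5315 to 5588. The log2 fold change of ICE2 turned from -0.03 to 0.0820 with library totals alone, a scaling that moved the median of all tested genes from 0.01 to 0.13. Leaving out a library gave -38.8 to -36.7 points for the EAF1 share, -2.37 to -1.38 for the ELL share, and -0.17 to -0.05 for EAF1 against its neighbors, with no change of sign. Divided by the longest transcript, wild-type levels were 15.1 for ICE1, 12.9 for EAF1, 10.1 for ICE2, 7.22 for ELL2, 4.13 for EAF2, 3.04 for ELL and 2.66 CPM per kb for ELL3. With library totals alone they were 13.3 for ICE1, 11.2 for EAF1, 5.68 for ELL2, 2.42 for ELL and 1.81 for ELL3, in the same order as with TMM. In EAF1-mutant cells, an alternative chosen after seeing the data, levels by the longest transcript were 13.7 for ICE1, 9.86 for ICE2, 9.09 for ELL2, 8.09 for EAF2, 4.54 for ELL3, 4.22 for EAF1 and 3.73 CPM per kb for ELL.

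With the replicate number as a block, 5685 genes were called, with 3 of the 7 and 3 of the partners. Deviations of libraries with the same number correlated at 0.06, -0.18 and 0.21, and those with different numbers at -0.36 to 0.23. Not every library correlated best with its own number. These weak values, from deviations around means of 3 libraries, gave no sign of pairing by number but cannot exclude it.

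With 3 libraries a group, permutation tests cannot pass 0.05, and the adjusted p-values of edgeR rest on its model. EAF2 and ELL3 rest on 190 to 555 counts a library.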
